A study of Mus musculus with 6 samples.

Results

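The 40 genes described here encode cyclins, kinases, replication factors and spindle proteins of the cell cycle. They were chosen by symbol from the 55357 genes counted by RNA-seq in mouse primary cultures of neurons, and all 40 were among the 21876 genes tested. They were divided into 17 S-phase members, 21 mitotic members and the G1 cyclins *Ccnd1* and *Ccnd2*. The cultures were wild type and were prepared from the cortex and hippocampus of C57BL/6N embryos at E18. All of them received lentivirus at DIV4 (day in vitro 4) and were collected at DIV14. The shCtrl group received a scrambled or control shRNA and the sh*Pla2g4e* group the sh2 shRNA against *Pla2g4e*, which encodes an N-acyltransferase that makes N-acyl-phosphatidylethanolamines, with 3 libraries of poly(A) RNA in each group. A single shRNA was used against the gene, so the loss of *Pla2g4e* and any other action of sh2 cannot be told apart. The libraries carry the numbers 1 to 3 in either group, and the labels do not say whether they came from separate cultures, so that p-values measure only the spread between these libraries.

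Between 17054717 and 23570180 reads were counted per library. Levels are given as CPM, read counts scaled by TMM to a common library total, and differences as the log2 fold change of sh*Pla2g4e* over shCtrl with its standard error (SE). This SE is approximate, being the size of the log2 fold change divided by the square root of the F statistic of the test. Genes were called differentially expressed (DEGs) at an adjusted p of 0.01 in edgeR's quasi-likelihood test over all genes tested. *Pla2g4e* itself was measured at 38.0, 35.1 and 35.4 CPM under shCtrl and at 21.8, 14.1 and 18.7 CPM under sh*Pla2g4e*, 50.5% of the shCtrl mean (adjusted p = 0.00012). Neuronal markers such as *Tubb3* and *Rbfox3* were detected in all libraries, and the markers of glial and progenitor cells were present as well. Across all genes, 876 (4.0%) were called lower and 543 (2.48%) higher in the sh*Pla2g4e* group. With scaling by library size alone this split turned to 609 lower and 796 higher.

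A cell enters the cycle when D-type cyclins and their kinases inactivate the retinoblastoma proteins, which frees E2F factors to switch on the genes of S phase, including cyclin E, the MCM helicase that unwinds DNA at origins, and the enzymes that make deoxynucleotides. Genes of G2 and mitosis are switched on later, by the MuvB complex with B-MYB and FOXM1, and are silenced in resting cells through a promoter element called the CHR. Neurons have left the cycle for good. In a primary culture the RNA of these genes comes largely from the dividing cells it still holds, such as progenitors and glia, although D-type cyclins and several replication factors are also transcribed in cells that do not divide. In bulk libraries, fewer cells of a type and less RNA per cell cannot be told apart.

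Of the 40 genes, 4 were called lower in the sh*Pla2g4e* group, 3 of them S-phase genes (*Mcm5*, *Mcm7* and *Rrm1*) and 1 a mitotic gene (*Top2a*), and 0 were called higher, beside 4.0% and 2.48% of all genes tested. At an unadjusted p of 0.05 the edgeR test gave 14 lower and 2 higher, beside 12.9% lower and 12.8% higher of all genes. The log2 fold change was below 0 for 32 of the 40, as it was for 46.5% of all genes tested. Among the 14161 genes whose mean level lay within the range of the members, 1.06 to 235 CPM, it was below 0 for 49.5%. The median log2 fold change was −0.32 over the S-phase members, −0.48 over the mitotic members and 0.03 over the G1 cyclins, against 0.03 over all genes tested. All 3 sh*Pla2g4e* libraries lay below all 3 shCtrl libraries for 12 members, 7 of S phase and 5 of mitosis, and all above for 2, *Ccne2* and *Tk1*. Among all genes tested, 14.6% lay below and 15.5% above in this way.

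The number of members called lower, like that of all genes, changed with single libraries. It was 1 when shCtrl replicate 2 was left out, 1 when sh*Pla2g4e* replicate 1 was and 2 when sh*Pla2g4e* replicate 2 was. In these fits 449, 548 and 570 of all genes tested were called lower, against 876 with all libraries. The number of members called lower also fell without shCtrl replicate 3, and it rose without shCtrl replicate 1 or without sh*Pla2g4e* replicate 3. In these last fits 903, 543 and 932 of all genes tested were called lower. The log2 fold change came closer to 0 by more than 1.5 times, or turned its sign, for 4 to 12 of the 40 members when a library was left out, the most being without shCtrl replicate 2. It moved farther from 0 by more than 1.5 times for 4 to 7 members, the most being without shCtrl replicate 1. Libraries of the same number deviated together, and with the replicate number as a block edgeR called 10 members lower and 1 higher, beside 9.02% of all genes called lower and 6.50% called higher in that fit. Within the pairs of equal number, 24 members were lower in the sh*Pla2g4e* library of all 3 pairs and 3 were higher in all 3, whereas 23.7% and 26.3% of all genes tested did so.

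**Figure D1:**
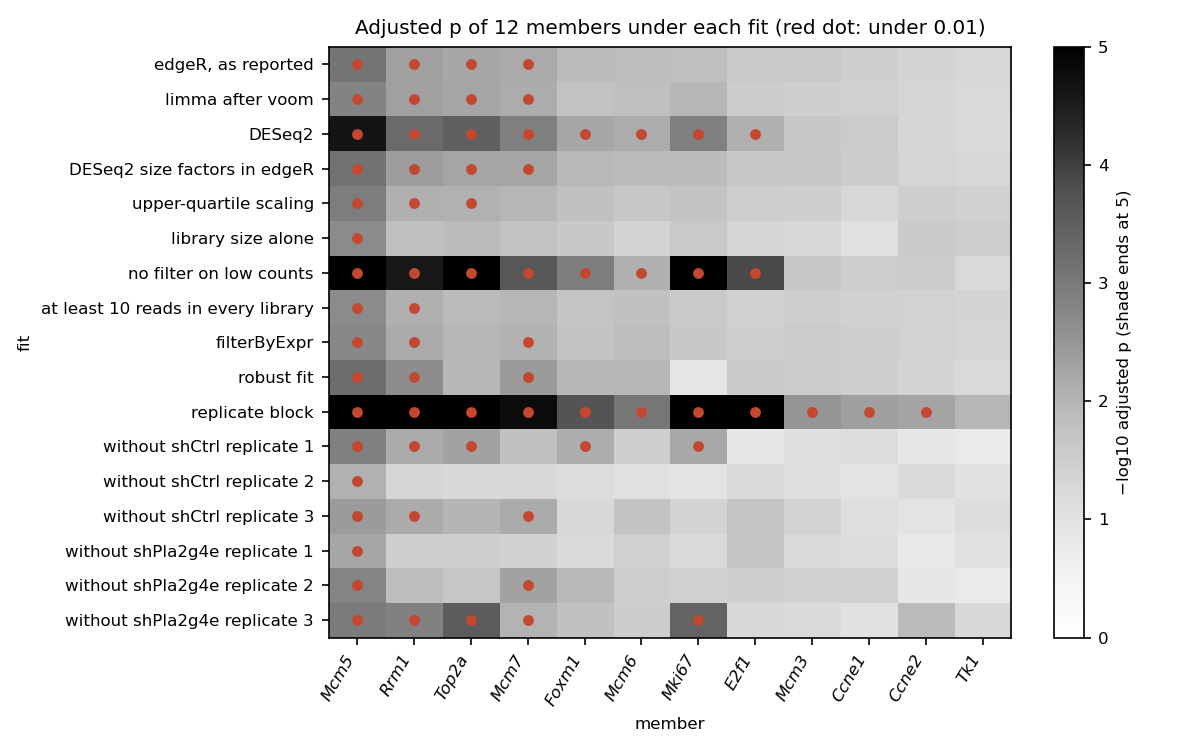
Adjusted p of the 12 members with an edgeR adjusted p under 0.05 or a call with the replicate block, under each fit, shaded by −log10 with red dots for values under 0.01. *Mcm5* has a dot in every fit shown. *Rrm1* has one in 12, *Mcm7* in 10 and *Top2a* in 8 of the 16 alternatives.

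**Figure D2:**
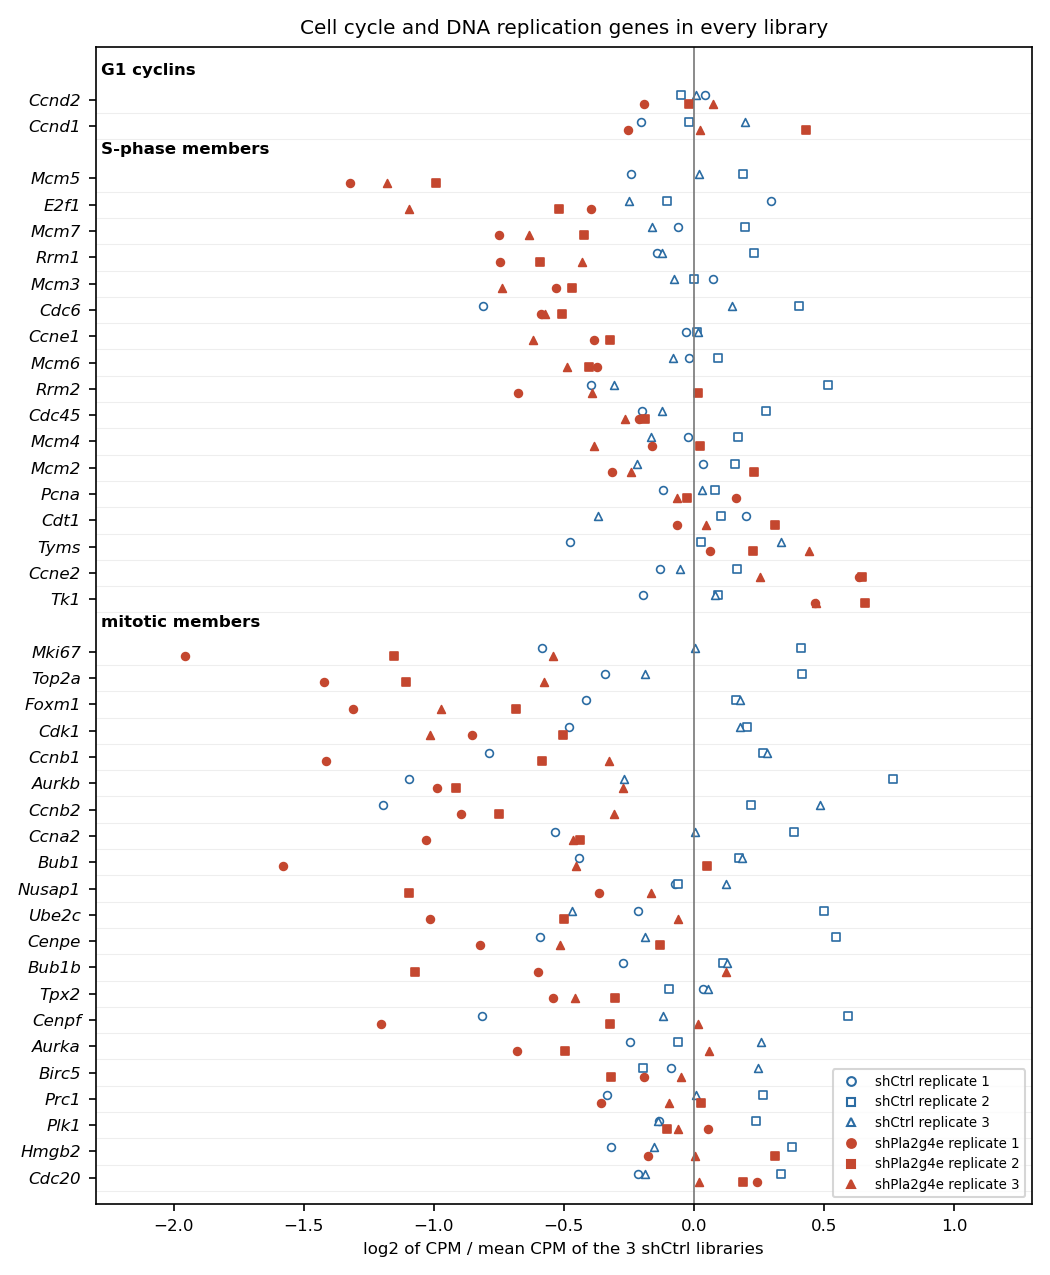
Level of each of the 40 members in each library, as the log2 of its CPM over the mean CPM of the 3 shCtrl libraries, with members ordered by log2 fold change within their class. Open blue symbols are shCtrl and filled red symbols sh*Pla2g4e* libraries, with the replicate number given by the shape. In S phase the sh*Pla2g4e* libraries all lie below the shCtrl libraries for *Mcm5*, *E2f1*, *Mcm7*, *Rrm1*, *Mcm3*, *Ccne1* and *Mcm6* and all above for *Ccne2* and *Tk1*, while most mitotic members spread widely within both groups.

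The promoters of the members were compared because genes of S phase and of mitosis are switched on through different elements. RefSeq promoters (GRCm38.p6, 250 bases before to 50 after the start) were found for 32 of the 40, with none for *Ccnd1*, *Ccnd2*, *Ccne2*, *Mcm4*, *Ccna2*, *Aurkb*, *Tpx2* and *Foxm1*. On either strand, the CHR (TTTGAA or TTCGAA) occurred in 13 of 17 mitotic members (76.5%), in 3 of 15 S-phase members and in 17.0% of the 13780 genes tested that have a promoter in the table. An E2F site (TTTCCCGC, TTTGGCGC, TTTCGCGC or TTTGCCGC) occurred in 1 of 17 mitotic members (5.88%), in 6 of 15 S-phase members and in 4.06% of all. The CCAAT box occurred in 15 of 17 (88.2%), 9 of 15 and 41.9% of these sets. These matches describe letters in the window and are no evidence of binding. The promoters of the 4 called members and of *Mki67* are shown because they carry both kinds of layout. Capitals mark the matches to these 3 motifs. In *Mcm5* (chr8:75109259-75109558, + strand) overlapping E2F sites begin 153 and 149 bases before the start, beside 3 CCAAT boxes. In *Mcm7* (chr5:138171834-138172133, − strand, the upstream of its 2 windows) E2F sites begin 165 bases before the start and at base 17 after it, the latter overlapping 1 of 3 CCAAT boxes, and a CHR begins 173 bases before the start. *Rrm1* (chr7:102441445-102441744, + strand) holds CCAAT boxes alone. *Top2a* (chr11:99024140-99024439, − strand) holds 4 CHR and 6 CCAAT matches, and *Mki67* (chr7:135716330-135716629, − strand) 2 and 3.
Mcm5: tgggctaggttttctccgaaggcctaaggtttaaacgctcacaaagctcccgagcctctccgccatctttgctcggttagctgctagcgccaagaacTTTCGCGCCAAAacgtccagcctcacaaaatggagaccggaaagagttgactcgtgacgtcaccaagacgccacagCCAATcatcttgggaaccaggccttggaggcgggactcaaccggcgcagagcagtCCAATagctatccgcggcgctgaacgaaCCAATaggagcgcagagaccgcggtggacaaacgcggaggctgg
Mcm7: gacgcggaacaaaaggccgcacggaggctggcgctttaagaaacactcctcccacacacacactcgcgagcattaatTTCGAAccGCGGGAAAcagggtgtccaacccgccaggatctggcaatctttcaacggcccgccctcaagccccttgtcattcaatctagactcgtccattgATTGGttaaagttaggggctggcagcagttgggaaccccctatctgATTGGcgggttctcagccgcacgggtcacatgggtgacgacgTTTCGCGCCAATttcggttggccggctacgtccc
Rrm1: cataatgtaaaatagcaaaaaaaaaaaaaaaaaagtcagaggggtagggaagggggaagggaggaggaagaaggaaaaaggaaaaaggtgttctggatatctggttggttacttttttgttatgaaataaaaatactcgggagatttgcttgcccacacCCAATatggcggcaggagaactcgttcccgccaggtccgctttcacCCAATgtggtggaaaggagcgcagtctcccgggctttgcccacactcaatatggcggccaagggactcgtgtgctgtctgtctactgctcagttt
Top2a: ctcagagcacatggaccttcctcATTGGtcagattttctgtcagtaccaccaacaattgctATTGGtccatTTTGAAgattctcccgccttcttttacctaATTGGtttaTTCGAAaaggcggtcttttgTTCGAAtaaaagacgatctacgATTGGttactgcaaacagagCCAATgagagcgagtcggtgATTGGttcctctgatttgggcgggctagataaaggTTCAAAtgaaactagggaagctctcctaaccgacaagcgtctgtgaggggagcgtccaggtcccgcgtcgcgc
Mki67: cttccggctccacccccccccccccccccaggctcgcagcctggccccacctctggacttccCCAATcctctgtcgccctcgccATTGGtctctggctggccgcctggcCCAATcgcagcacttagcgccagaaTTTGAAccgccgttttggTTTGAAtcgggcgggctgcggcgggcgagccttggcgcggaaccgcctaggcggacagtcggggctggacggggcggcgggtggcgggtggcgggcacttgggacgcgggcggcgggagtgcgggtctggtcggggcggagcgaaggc

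The MCM subunits form the ring-shaped helicase that is loaded onto replication origins before S phase. *Mcm5* (ENSMUSG00000005410.7, chr8:75836197-75855067, + strand, GRCm39) was measured at 6.45, 8.71 and 7.73 CPM under shCtrl and at 3.05, 3.84 and 3.37 CPM under sh*Pla2g4e*. The highest sh*Pla2g4e* library was well below the lowest shCtrl library. Its level was 44.8% of the shCtrl mean (log2 fold change −1.16 ± 0.19 SE, edgeR adjusted p = 0.00083), from 59 to 174 reads per library. This call held in all 16 alternative fits, with adjusted p-values from 5.5e-07 to 0.0088, the highest without shCtrl replicate 2.

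*Mcm7* (ENSMUSG00000029730.17, chr5:138162845-138170684, − strand) was measured at 20.3, 24.3 and 18.96 CPM under shCtrl and at 12.6, 15.8 and 13.7 CPM under sh*Pla2g4e*. The groups did not overlap, and the log2 fold change was −0.59 ± 0.13 SE (edgeR adjusted p = 0.0065). The adjusted p was 0.016 when shCtrl replicate 1 was left out, 0.056 when shCtrl replicate 2 was and 0.039 when sh*Pla2g4e* replicate 1 was. It was 0.018 with scaling by library size alone, 0.0103 with upper-quartile scaling and 0.0106 with at least 10 reads in every library. Of the 50-base stretches of the *Mcm7* transcript, 26% also occur in transcripts of other genes, and 8.7% of its exon bases lie opposite exons of other genes and 3.89% overlap them on the same strand (*Ap4m1*, *Cops6*, *Mir25* and *Mir93* are the neighbours), so that its count is less certain than that of the other subunits.

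The other MCM subunits did not pass the threshold of 0.01. *Mcm6* had 25.9 ± 1.59 CPM (SD, n = 3) in the shCtrl group and 19.4 ± 0.786 CPM in the sh*Pla2g4e* group, with an edgeR adjusted p of 0.014 that became 0.00089 with the replicate block. *Mcm3* had 8.95 ± 0.466 and 6.01 ± 0.573 CPM, with an edgeR adjusted p of 0.025 and of 0.0030 with the block. For both genes the groups did not overlap. Leaving out 1 library in turn gave edgeR adjusted p-values of 0.019 to 0.085 for *Mcm6* and of 0.039 to 0.083 for *Mcm3*. *Mcm4* was measured at 19.9, 22.8 and 18.1 CPM under shCtrl and at 18.1, 20.6 and 15.5 CPM under sh*Pla2g4e*, and *Mcm2* at means of 12.6 and 11.9 CPM. For these last subunits the groups overlapped, and the log2 fold changes were −0.16 ± 0.13 and −0.09 ± 0.16 SE (−0.068 and −0.00083 without shCtrl replicate 2). They were −0.26 and −0.28 without sh*Pla2g4e* replicate 2. The subunits of this complex ranged in log2 fold change from −1.16 for *Mcm5* to −0.09 for *Mcm2*.

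The factors that load and start the helicase showed no call. *Cdc6*, which loads MCM rings, had means of 1.45 and 0.983 CPM with a log2 fold change of −0.55 ± 0.39 SE, and its partner *Cdt1* had means of 6.08 and 6.54 CPM with a log2 fold change of 0.11 ± 0.19 SE. *Cdc45*, part of the active helicase, had a log2 fold change of −0.22 ± 0.25 SE. Without shCtrl replicate 2, *Cdc6* was at −0.31 and *Cdc45* at −0.059, and without shCtrl replicate 1 at −0.83 and −0.31. *Pcna*, the sliding clamp of the DNA polymerases, was the S-phase member with the highest level per length (15.4 CPM per kilobase of exon). It was measured at 33.6, 38.7 and 37.3 CPM under shCtrl and at 40.9, 35.9 and 34.97 CPM under sh*Pla2g4e*. Its groups overlapped, with a log2 fold change of 0.03 ± 0.10 SE, and 31.8% of its 50-base stretches occur in other genes.

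The enzymes that make deoxynucleotides had log2 fold changes of both signs. *Rrm1* (ENSMUSG00000030978.11, chr7:102090902-102118978, + strand), the large subunit of ribonucleotide reductase, was measured at 27.4, 35.4 and 27.7 CPM under shCtrl and at 17.99, 20.02 and 22.4 CPM under sh*Pla2g4e*. All 3 sh*Pla2g4e* libraries lay below all 3 shCtrl libraries, and the log2 fold change was −0.59 ± 0.12 SE (edgeR adjusted p = 0.0049). The adjusted p was 0.046 when shCtrl replicate 2 was left out, 0.032 when sh*Pla2g4e* replicate 1 was and 0.014 when sh*Pla2g4e* replicate 2 was, and 0.015 with scaling by library size alone. *Rrm2*, the small subunit made in S phase, had means of 6.82 and 5.45 CPM with a log2 fold change of −0.32 ± 0.25 SE that turned to 0.03 without shCtrl replicate 2.

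*Tk1*, the thymidine kinase of the salvage route, had 5.33 ± 0.581 CPM (SD, n = 3) in the shCtrl group and 7.72 ± 0.606 CPM in the sh*Pla2g4e* group. Its groups did not overlap, but its edgeR adjusted p of 0.050 missed the threshold, also with the replicate block (0.011). *Tyms*, the thymidylate synthase, had means of 2.57 and 3.06 CPM and a log2 fold change of 0.24 ± 0.26 SE, which ran from 0.053 without shCtrl replicate 1 to 0.45 without shCtrl replicate 3.

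The E-type cyclins, partners of CDK2 at the entry into S phase, had log2 fold changes of opposite sign. *Ccne1*, which encodes cyclin E1, was measured at 15.5, 15.9 and 16.0 CPM under shCtrl and at 12.1, 12.6 and 10.3 CPM under sh*Pla2g4e* (log2 fold change −0.43 ± 0.13 SE, edgeR adjusted p = 0.034, and 0.0043 with the replicate block). The shCtrl libraries were close together and all above the sh*Pla2g4e* libraries. With 1 library left out, the edgeR adjusted p of *Ccne1* was 0.039 to 0.11. *Ccne2*, which encodes cyclin E2, had 7.001 ± 0.756 CPM (SD, n = 3) in the shCtrl group and 10.1 ± 1.49 CPM in the sh*Pla2g4e* group. Its log2 fold change was 0.53 ± 0.16 SE with an edgeR adjusted p of 0.044, and of 0.0054 with the replicate block, where it was the 1 member called higher. With 1 library left out, its edgeR adjusted p was 0.013 to 0.15. For *Ccne2*, 17.4% of the exon bases lie opposite exons of *Ints8*, and the counting used no strand. *E2f1*, a transcription factor that drives S-phase genes, had 19.5 ± 3.97 CPM in the shCtrl group and 12.5 ± 3.01 CPM in the sh*Pla2g4e* group, with an edgeR adjusted p of 0.025, and of 9.8e-06 with the block. With 1 library left out, the edgeR adjusted p of *E2f1* was 0.019 to 0.14 and its log2 fold change −0.77 to −0.45.

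The mitotic members had SEs of 0.15 to 0.44 on the log2 scale, and as few as 10 reads in a library for *Bub1*. *Top2a* (ENSMUSG00000020914.18, chr11:98883769-98915015, − strand), which encodes the topoisomerase that untangles sister chromatids, was measured at 11.2, 18.97 and 12.5 CPM under shCtrl and at 5.31, 6.61 and 9.54 CPM under sh*Pla2g4e*. The groups did not overlap, although sh*Pla2g4e* replicate 3 came near shCtrl replicate 1, and the sh*Pla2g4e* mean was 50.3% of the shCtrl mean. The log2 fold change was −1.001 ± 0.22 SE (edgeR adjusted p = 0.0061). The adjusted p was 0.055 and 0.0102 when shCtrl replicates 2 and 3 were left out in turn, and 0.034 and 0.022 when sh*Pla2g4e* replicates 1 and 2 were. It lay between 0.0107 and 0.0125 with scaling by library size alone, with either stricter filter on low counts and in the robust fit.

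*Mki67*, which encodes the proliferation marker Ki-67, was measured at 8.44, 16.8 and 12.7 CPM under shCtrl and at 3.26, 5.69 and 8.68 CPM under sh*Pla2g4e*. Here sh*Pla2g4e* replicate 3 lay above shCtrl replicate 1, so the groups overlapped. The log2 fold change was −1.13 ± 0.28 SE (edgeR adjusted p = 0.015), and within the pairs it was −1.35, −1.55 and −0.54, with an adjusted p of 1.5e-08 in the fit with the replicate block. The adjusted p was 0.12 in the robust fit. With 1 library left out, the edgeR adjusted p was 0.00038 to 0.107 and the log2 fold change −1.51 to −0.82.

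*Foxm1*, a transcription factor of G2 and mitotic genes, was measured at 4.12, 6.14 and 6.22 CPM under shCtrl and at 2.22, 3.42 and 2.80 CPM under sh*Pla2g4e*. The groups stood apart, with a log2 fold change of −0.97 ± 0.24 SE and an edgeR adjusted p of 0.013 (0.00019 with the replicate block). With 1 library left out, the edgeR adjusted p was 0.0075 to 0.069. *Cdk1*, the kinase that drives entry into mitosis, had means of 3.93 and 2.30 CPM with a log2 fold change of −0.77 ± 0.26 SE and an edgeR adjusted p of 0.064. Its cyclins *Ccna2*, *Ccnb1* and *Ccnb2* had log2 fold changes of −0.62 ± 0.25, −0.72 ± 0.38 and −0.64 ± 0.42 SE, none of them called. Leaving out 1 library in turn gave −0.83 to −0.39 for *Ccna2*, −0.995 to −0.45 for *Ccnb1* and −0.998 to −0.31 for *Ccnb2*, the last value being that without shCtrl replicate 3. For *Ccnb1*, 42.1% of the 50-base stretches occur in other genes.

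**Figure D3:**
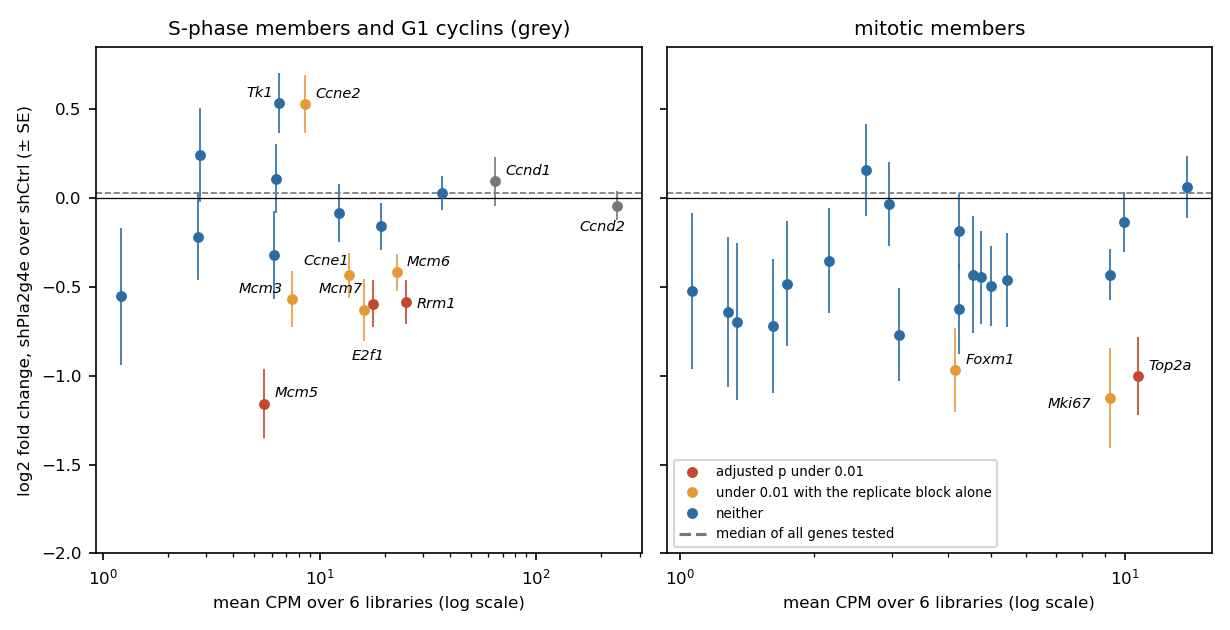
Log2 fold change of sh*Pla2g4e* over shCtrl with its SE for each member, against its mean CPM over the 6 libraries on a log axis. The called members *Mcm5*, *Mcm7*, *Rrm1* and *Top2a* are red, those that passed with the replicate block alone orange, the G1 cyclins grey, and the dashed line is the median over all genes tested. SEs are widest for the members with the lowest CPM.

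None of the other kinase and structural genes of mitosis was called. The checkpoint kinase genes *Bub1* and *Bub1b* had log2 fold changes of −0.52 ± 0.44 and −0.45 ± 0.26 SE, and the Aurora kinase genes *Aurka* and *Aurkb* −0.35 ± 0.29 and −0.70 ± 0.44 SE. Over the fits that left out 1 library these ranged from −0.94 to −0.17 for *Bub1*, −0.81 to −0.21 for *Bub1b*, −0.59 to −0.201 for *Aurka* and −1.03 to −0.084 for *Aurkb*. The values nearest 0 came without sh*Pla2g4e* replicate 1, sh*Pla2g4e* replicate 2, shCtrl replicate 3 and shCtrl replicate 2. *Plk1*, the polo-like kinase gene, had means of 2.98 and 2.91 CPM and a log2 fold change of −0.03 ± 0.24 SE. *Tpx2*, a spindle assembly factor, was measured at 10.9, 9.91 and 11.01 CPM under shCtrl and at 7.28, 8.60 and 7.71 CPM under sh*Pla2g4e*, without overlap, with an edgeR adjusted p of 0.063. *Nusap1*, which bundles spindle microtubules, had means of 5.82 and 4.15 CPM without overlap and an edgeR adjusted p of 0.18, with log2 fold changes of −0.68 to −0.27 when a library was left out.

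The centromere genes *Cenpe* and *Cenpf* had log2 fold changes of −0.46 ± 0.26 and −0.43 ± 0.33 SE, which became −0.088 and −0.011 without shCtrl replicate 2. Without shCtrl replicate 1 they became −0.68 and −0.71. *Birc5*, which encodes survivin, and *Prc1*, a protein of the spindle midzone, had −0.19 ± 0.21 and −0.13 ± 0.17 SE, with *Birc5* at −0.044 without shCtrl replicate 3 and *Prc1* at 0.017 without shCtrl replicate 2. In the other direction, *Birc5* reached −0.27 without shCtrl replicate 2 and *Prc1* −0.28 without shCtrl replicate 1. *Ube2c* and *Cdc20* both act with the anaphase-promoting complex. *Ube2c* had a log2 fold change of −0.48 ± 0.35 SE (−0.15 without shCtrl replicate 2), with 22.8% of its exon bases opposite *Tnnc2*. *Cdc20* was measured at 2.13, 3.12 and 2.18 CPM under shCtrl and at 2.93, 2.82 and 2.51 CPM under sh*Pla2g4e*, with full overlap (log2 fold change 0.16, and 0.064 to 0.36 when a library was left out).

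*Hmgb2*, a chromatin protein gene, had the highest level per length of the mitotic members, 4.59 CPM per kilobase of exon. It was measured at 10.8, 17.5 and 12.1 CPM under shCtrl and at 11.9, 16.7 and 13.5 CPM under sh*Pla2g4e*. These values overlapped fully (log2 fold change 0.06 ± 0.18 SE), and 21.9% of its 50-base stretches occur in other genes.

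The D-type cyclins bind CDK4 and CDK6 in G1, and *Ccnd2* had the highest level per length of all 40 members. *Ccnd2* was measured at 246, 230 and 240 CPM under shCtrl and at 209, 235 and 251.3 CPM under sh*Pla2g4e*. *Ccnd1* was measured at 54.1, 61.5 and 71.3 CPM under shCtrl and at 52.3, 84.0 and 63.4 CPM under sh*Pla2g4e*. For both genes the groups overlapped, with log2 fold changes of −0.04 ± 0.08 and 0.09 ± 0.14 SE, and 23.4% of the exon bases of *Ccnd1* lie opposite those of another gene. Per kilobase of exon, *Ccnd2* stood at 25.0 CPM and *Ccnd1* at 13.7 CPM, beside 0.921 CPM for *Mki67* and 0.631 CPM for *Cdk1*.

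Summed over the class, the 17 S-phase members took 224, 253 and 216 CPM under shCtrl and 190, 204 and 178 CPM under sh*Pla2g4e*. The groups did not overlap, and the sh*Pla2g4e* mean was 82.6% of the shCtrl mean. The 21 mitotic members took 93.6, 146 and 119 CPM under shCtrl and 72.0, 90.2 and 97.8 CPM under sh*Pla2g4e*, 72.5% of the shCtrl mean. Here the groups overlapped, since shCtrl replicate 1 was below sh*Pla2g4e* replicate 3. The median log2 fold change of the S-phase members was −0.07 without shCtrl replicate 2, and that of the mitotic members ranged from −0.68 to −0.37 over the fits that left out 1 library.

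Libraries of 1 group differed from each other across many members at once. shCtrl replicate 1 was the lowest of its group for 17 of the 21 mitotic members and sh*Pla2g4e* replicate 1 for 15 of 21, whereas these libraries were the lowest of their group for 35.5% and 31.0% of all genes tested. Among the 17 S-phase members, replicate 2 was the highest library for 12 in the shCtrl group and for 12 in the sh*Pla2g4e* group, beside 28.6% and 34.3% of all genes tested. The highest library for the mitotic members was replicate 2 in the shCtrl group (12 of 21) but replicate 3 in the sh*Pla2g4e* group (11 of 21, beside 35.1% of all genes tested).

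**Figure D4:**
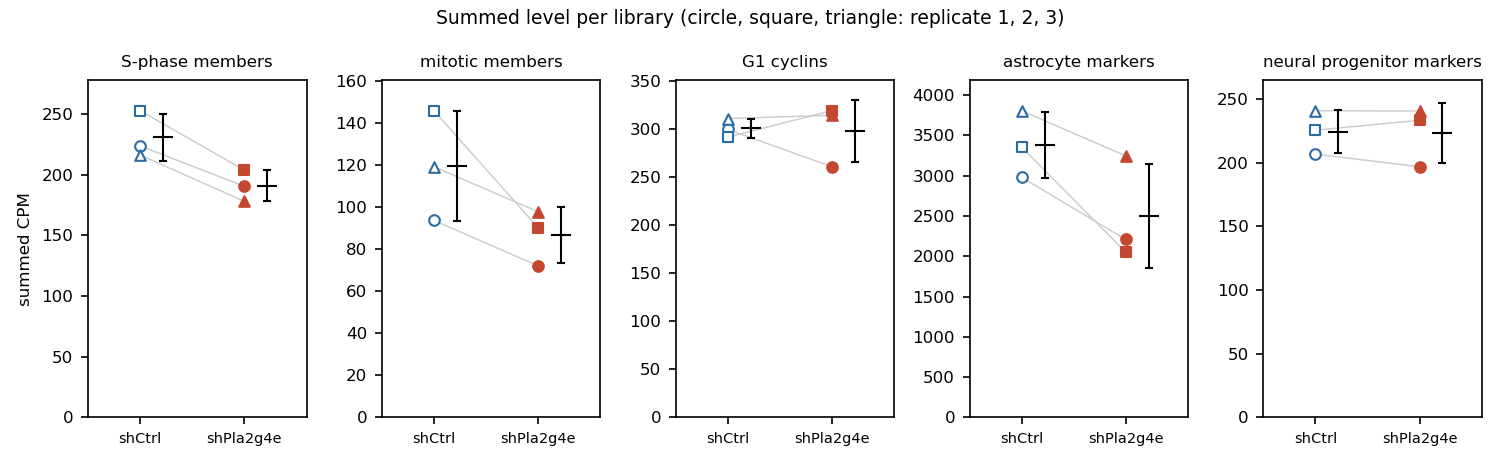
Summed CPM per library of the S-phase members, the mitotic members and the G1 cyclins, and of the astrocyte and neural progenitor markers, with the mean ± SD of each group in black and grey lines joining libraries of equal number. The S-phase sums of the sh*Pla2g4e* libraries (178 to 204 CPM) lie below those of the shCtrl libraries (216 to 253 CPM), and in each pair the mitotic sum is lower in sh*Pla2g4e*. The astrocyte marker sum is also lower in each pair, at 2980 to 3807 CPM in shCtrl and 2052 to 3246 CPM in sh*Pla2g4e*.

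Other genes of the same processes were examined beside the members, 125 of the 126 listed having enough reads. Of these, edgeR called 2 lower and 0 higher, beside 4.0% and 2.48% of all genes tested. At an unadjusted p of 0.05 it gave 31 lower and 5 higher, beside 12.9% and 12.8% of all genes. Among 45 other replication genes, *Uhrf1*, which recruits the maintenance DNA methyltransferase at the fork, was measured at 5.09, 6.34 and 7.77 CPM under shCtrl and at 2.43, 2.64 and 2.80 CPM under sh*Pla2g4e*. Its groups were far apart (log2 fold change −1.29 ± 0.22 SE, edgeR adjusted p = 0.00082), and it passed in all 16 alternative fits. The median over these 45 genes was −0.17, with 29 below 0.

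Among 56 other mitotic genes, *Pbk*, a mitotic kinase gene, was measured at 1.16, 2.62 and 2.40 CPM under shCtrl and at 0.669, 0.555 and 0.571 CPM under sh*Pla2g4e* (log2 fold change −1.77 ± 0.40 SE, edgeR adjusted p = 0.0072). Its adjusted p was 0.053 and 0.032 when shCtrl replicates 2 and 3 were left out in turn, and 0.022, 0.025 and 0.012 when sh*Pla2g4e* replicates 1, 2 and 3 were. It was 0.026 with limma after voom and 0.011 both with scaling by library size alone and with filterByExpr, so that *Pbk* was called in 8 of the 16 alternative fits. The median over the 56 was −0.35, with 41 below 0.

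Of the 24 tested genes for cyclin-dependent kinases, their inhibitors, Rb and E2F proteins, 0 were called by edgeR, beside 4.0% lower and 2.48% higher of all genes tested. At an unadjusted p of 0.05 edgeR gave 2 lower and 3 higher, beside 12.9% and 12.8% of all genes, and the median of the 24 was 0.06. The smallest p-values were those of *E2f4*, an E2F that represses in resting cells (34.4 to 37.2 CPM in shCtrl, 43.9 to 45.1 CPM in sh*Pla2g4e*, edgeR adjusted p = 0.030), and *Lin52*, a MuvB subunit (12.8 to 18.8 and 9.49 to 13.7 CPM, adjusted p = 0.046). With the replicate block, 14 of the 125 genes were called lower and 4 higher, beside 9.02% and 6.50% of all genes.

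**Figure D5:**
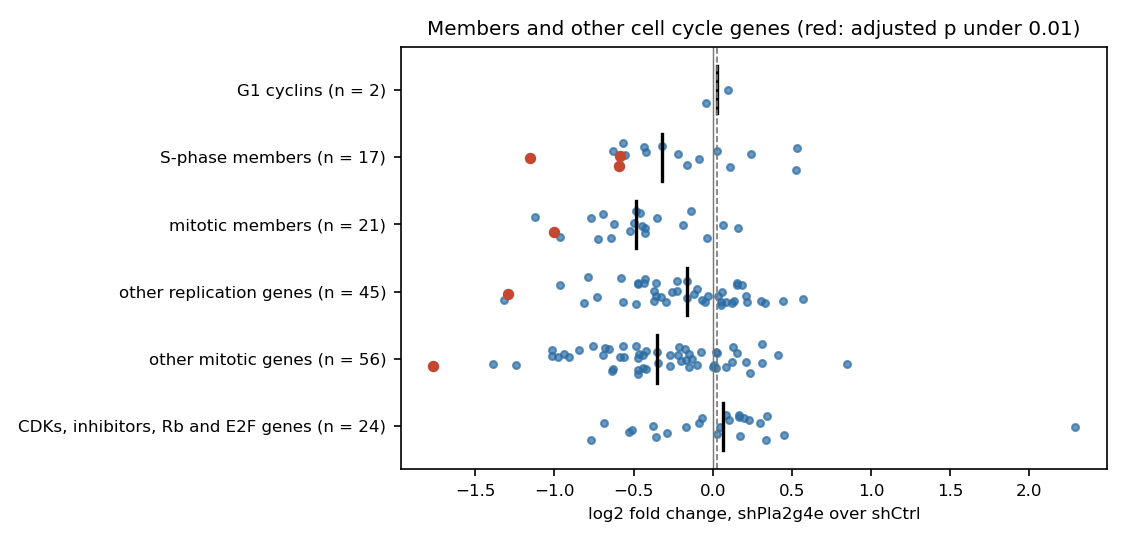
Log2 fold changes of sh*Pla2g4e* over shCtrl for the members by class and for the 3 lists of other cell cycle genes, with 1 point per gene, the median of each list as a black bar and the median of all genes tested as a dashed line. Red points passed an adjusted p of 0.01. The medians of the mitotic members (−0.48) and of the other mitotic genes (−0.35) are the farthest below 0, and that of the kinases, inhibitors, Rb and E2F genes is 0.06.

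Markers of the dividing cells that the cultures could hold were measured in the same libraries. Of 11 astrocyte markers, 3 were called lower (*Aqp4*, *Gja1* and *Slc1a2*) and 0 higher, beside 4.0% and 2.48% of all genes tested, and their sum was 2980 to 3807 CPM under shCtrl and 2052 to 3246 CPM under sh*Pla2g4e*, with none at 0. *Aqp4*, the water channel of astrocyte endfeet, was measured at 120, 141 and 184 CPM in shCtrl and at 51.4, 49.1 and 95.1 CPM in sh*Pla2g4e*. The log2 fold change was above 0 for 3 of the 11, among them *S100b*, a calcium-binding protein gene, with a log2 fold change of 1.11, groups that did not overlap and an edgeR adjusted p of 0.021 (0.00096 with the replicate block). Of the 10 neural progenitor markers, 0 were called lower and 1, *Neurog2*, was called higher. Their sum was 207 to 241 CPM in shCtrl and 197 to 240 CPM in sh*Pla2g4e*. The neuronal markers differed as well, with 4 of 10 called lower (*Rbfox3*, *Map2*, *Tubb3* and *Slc17a7*) and 1, *Nefl*, called higher, beside the same shares of all genes. Their sum was 6301 to 6943 CPM in shCtrl and 5224 to 5762 CPM in sh*Pla2g4e*, 82.4% of the shCtrl mean, without overlap between the groups.

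The 10 markers of the oligodendrocyte lineage summed to 560 to 627 CPM in shCtrl and 566 to 722 CPM in sh*Pla2g4e*, with none called. Of 10 microglial markers 8 were tested and 0 called, with sums of 6.36 to 15.0 and 3.61 to 7.54 CPM, and *P2ry12*, a defining microglial gene, was at 0 in sh*Pla2g4e* replicates 1 and 3. The log2 fold change was below 0 for 7 of the 8 and 0.97 for the other. At an unadjusted p of 0.05 edgeR gave 3 lower and 1 higher, beside 12.9% and 12.8% of all genes tested. The mural, endothelial and fibroblast markers summed to 84.8 to 90.4 and 90.7 to 104 CPM, with 0 of 10 called. The astrocyte, neuronal and microglial marker sums, like those of the S-phase and mitotic members, were lower in the sh*Pla2g4e* library of all 3 pairs, whereas the progenitor marker sum was lower in pair 1, higher in pair 2 and nearly equal in pair 3. The part of these marker levels in the results for the members was not tested.

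The shRNA sequence was matched to the members because a guide strand can also act on mRNAs with a site for its seed, bases 2 to 8. The guide is shown with the seed in capitals, followed by the longest run that *Mcm7* shares with the *Pla2g4e* target, with the seed site in capitals.
sh2 guide: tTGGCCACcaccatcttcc
Mcm7 run: gatggtgGTGGCCA
The seed site GTGGCCA occurred in the 3′ UTR of 6 of the 40 members (15.0%), *Ccnd1*, *Ccnd2*, *Tyms*, *Cdk1*, *Birc5* and *Nusap1*. It occurred in 14.1% of the 15742 genes tested with an annotated 3′ UTR and in 43.5% of the 856 such genes called lower. The lengths of the 3′ UTRs were not taken into account. None of the 4 called members held it in the 3′ UTR. In coding sequence 12 of the 40 members held it, beside 24.8% of 15738 genes tested and 38.7% of 856 genes called lower. Among these 12 were the called *Mcm7* with 2 sites and *Rrm1* with 1, and *Cdc20* with 3 and *Cdk1* with 2, which were not called. The run of 14 bases in the *Mcm7* coding sequence matches bases 5 to 18 of the target of 19 bases. Runs of at least 14 bases were found in 20 of 21741 genes (0.092%), and among the 874 genes called lower in 2, *Pla2g4e* itself and *Mcm7*. This match was singled out after the values were seen, and its part in the level of *Mcm7* was not tested. The other members shared runs of 7 to 11 bases with the target.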

How the data were processed

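Poly(A) RNA of primary cultures was sequenced as 6 libraries, 3 per group, after a stranded TruSeq preparation. Per the labels and the file headers, the authors aligned the reads with STAR 2.7.0d and counted reads on exons with featureCounts 1.6.0, and the deposited values are raw counts per gene on GRCm39 with GENCODE vM28, not normalized. The study's methods give mm10 and GENCODE M18 instead. The count command holds no strand, pair or multi-mapping option. Strand therefore did not separate reads where exons of opposite genes overlap, and reads shared by near-identical copies are left out. Whether such overlaps raise or lower a count was not examined. Symbols came from GENCODE vM21 by identifier, for 52081 of 55357 genes.

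From the counts, edgeR 4.0.16 in R 4.3.3 was run (TMM factors, quasi-likelihood test, group alone, genes reaching 6 reads in 1 or more libraries, Benjamini-Hochberg over all genes, threshold 0.01). The authors' own test, limma after voom (limma 3.58.1), DESeq2 1.42.0, other scalings and filters, a replicate block and leaving out each library were alternatives. In 10908 genes (mean log2 CPM of 3 or more), the departures from group means had correlations of 0.392, 0.189 and 0.461 for equally numbered libraries and of −0.393 to 0.108 for the rest. The numbers, from the labels, were therefore taken as pairs. No library repeated another, with a chi-square per gene of 5.65 to 14.0 within groups and 17.3 to 34.1 across them.

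Values in every library are given for members that were called, that had the 3 smallest p-values of their class or the 3 highest CPM per kilobase of exon, and the others by means or log2 fold changes. Of each list of other cell cycle genes, the called ones are named, or the 2 with the smallest p where none was called. The lists of cell type markers are given by counts and sums, and *Aqp4*, *S100b* and *P2ry12* were singled out after their values were seen. The members and lists were chosen with earlier results of these data known. Promoters are RefSeq's (GRCm38.p6). The shRNA sequence is the one the study lists. Seed sites were read from GENCODE vM21 on GRCm38, in the 3′ UTR and coding sequence of the longest coding transcript of a gene. The longest shared run was sought in all transcripts of a gene in the same annotation. Exon overlaps were read from the exon coordinates of the count files, on GRCm39. Stretches of 50 bases were used to find sequence shared with other genes.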

Additional observations from a re-analysis of the deposited data

How the results depend on the processing

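The number of members called lower was 4 with limma after voom and with DESeq2's size factors, 8 with DESeq2 or without a filter on low counts, 2 with at least 10 reads in every library, 1 with scaling by library size alone, 10 with the replicate block and 10 at an adjusted p of 0.05. It ranged from 1 to 5 when a library was left out. Of all genes, 876 were called lower by edgeR, 925 with limma, 896 with DESeq2's size factors, 1214 with DESeq2, 1360 of 32161 without a filter, 764 of 15312 with at least 10 reads in every library, 609 with library size alone, 1973 with the block, 1599 at 0.05 and 449 to 932 without a library. Members called higher numbered 1 with the block and 2 at 0.05, beside 1422 and 1214 of all genes. Other cell cycle genes called lower numbered 1 with limma, library size alone or filterByExpr, 8 without a filter, 14 with the block, 10 at 0.05 and 1 to 4 without a library, and those called higher 1 with library size alone, 2 without a filter, 4 with the block, 2 at 0.05 and 0 to 2 without a library. Of all genes, 797 of 17019 were called lower with filterByExpr. Those called higher numbered 796 with library size alone, 989 of 32161 without a filter and 246 to 681 without a library. The median log2 fold change of the S-phase members ranged from −0.43 to −0.068 without a library, and that of the mitotic members and both sums moved by less than the spread between replicates. Of 640 alternative values of single members, 587 kept their direction and side of the threshold, 18 newly passed it, 18 missed it and 17 changed sign, in members whose edgeR adjusted p was 0.47 or higher. With scaling by library size alone *Ccnd2* turned to 0.033 and *Plk1* to 0.040, and with upper-quartile scaling *Plk1* to 0.0011. Over the fits that left out 1 library, the log2 fold change ranged from −0.11 to 0.24 for *Ccnd1*, −0.10 to 0.029 for *Ccnd2*, −0.049 to 0.22 for *Cdt1*, −0.28 to 0.022 for *Mcm2*, −0.042 to 0.072 for *Pcna*, −0.53 to 0.026 for *Rrm2*, −0.099 to 0.10 for *Plk1*, −0.084 to 0.29 for *Hmgb2* and −0.28 to 0.017 for *Prc1*. The causes were not tested. The block changed no call of a member other than those given. Mitotic members with as few as 10 reads in a library are known only roughly at this depth, and a difference that missed the threshold there does not show equal levels.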
